A study of Mus musculus with 12 samples.

Results

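The 9 mouse genes described here encode subunits of Mediator (Med1, Med12, Med13, Med13l and Med24), the acetyltransferases p300 and CBP (Ep300 and Crebbp) and the enhancer-promoter factors YY1 and LDB1 (Yy1 and Ldb1). They were chosen by name, out of 21887 protein-coding genes placed on the chromosomes by RefSeq, and each was taken as its annotated span with 10 kb on each side. Chromatin immunoprecipitation sequencing (ChIP-seq) had been used to map H3K27ac, the acetyl mark on lysine 27 of histone H3 that is found at active regulatory elements. It was also used for KLF4, a DNA-binding protein that helps to keep stem cells pluripotent. The embryonic stem cells (ESCs), of the V6.5 line, had been infected with a lentiviral vector for doxycycline-inducible Cas9 and guide RNAs. Per the labels these guides cut either Klf4 by itself or the trio of Klf2, Klf4 and Klf5, and the sample titles do not settle which. H3K27ac was measured in 2 ESC samples after 24 h of doxycycline and in 2 ESC samples at 0 h, labelled wild type, which also carry the vector. The lines were picked clones, and whether both times came from the same clone is not stated. Induced pluripotent stem cells (iPSCs) without a stated edit were measured in 2 samples for KLF4 and 2 samples for H3K27ac. The labels give all 12 samples, the 4 inputs included, as grown in 2i, a medium with inhibitors of MEK and GSK3, and the ESC protocol names irradiated feeder cells, a serum-containing medium and LIF.

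Mediator is a large complex that passes signals from enhancer-bound factors to RNA polymerase II. Its core has head, middle and tail modules, and a separable kinase module, in which MED12 and MED13 or MED13L hold CDK8 or CDK19 with cyclin C, controls how the core meets the polymerase. p300 and CBP are the main writers of H3K27ac, while YY1 and LDB1 bring enhancers and promoters together. Pluripotent cells are known to depend on high levels of Mediator at the enhancers of their identity genes.

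Each ChIP group was represented by 1 list deposited by the authors, so no value has a replicate error, no difference was tested, and read depth is unknown. The ESC lists held 47307 bins of 10 kb at 24 h and 49460 at 0 h, of which 25611 and 26812 carried an H3K27ac value, and the iPSC lists held 21563 KLF4 peaks and 55466 H3K27ac peaks. Deposited values are not on a known common scale, so a relative value was used, the log2 ratio of 24 h to 0 h in a bin less the median ratio of the 22739 bins valued at both times (-0.23, a ratio of 0.854). All 8 markers of pluripotent cells looked up, among them Pou5f1, Sox2 and Nanog, carried a value at both times, with highest values of 6.27 to 24.2 at 24 h and 8.33 to 29.7 at 0 h. Of 8 markers of fibroblasts, the usual feeder cells, Col1a2, Postn, Thy1, Twist1 and Twist2 had no value, and the other 3 reached 2.59 to 6.71 at 24 h and 3.35 to 6.15 at 0 h. Their summed highest values were 12.2 at 24 h and 13.3 at 0 h, against 88.1 and 109 for the pluripotency markers, and their part in the results was not tested. Values average over all cells of a culture, so fewer acetylated cells and less acetylation per cell cannot be told apart.

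The bases before a gene's start are shown for Ldb1, the gene with the most KLF4 peaks of the 9, for Ep300, which had the highest H3K27ac value at its own start, and for Med12, which had no KLF4 peak. Each is the 250 bases before a RefSeq start (GRCm38.p6, the primary assembly of mm10), 5′ to 3′ on the strand of the gene, with capitals at matches to GGGNGNGG on either strand, letters that hold the core of the sites bound by KLF factors.
Ldb1 start at 46045311 (chr19:46045312-46045561, minus strand): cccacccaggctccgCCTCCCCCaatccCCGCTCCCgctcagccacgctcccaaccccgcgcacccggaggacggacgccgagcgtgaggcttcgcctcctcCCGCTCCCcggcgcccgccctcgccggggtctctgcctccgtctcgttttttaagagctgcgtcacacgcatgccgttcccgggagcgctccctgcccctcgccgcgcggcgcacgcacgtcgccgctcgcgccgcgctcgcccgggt
Ldb1 start at 46039621 (chr19:46039622-46039871, minus strand): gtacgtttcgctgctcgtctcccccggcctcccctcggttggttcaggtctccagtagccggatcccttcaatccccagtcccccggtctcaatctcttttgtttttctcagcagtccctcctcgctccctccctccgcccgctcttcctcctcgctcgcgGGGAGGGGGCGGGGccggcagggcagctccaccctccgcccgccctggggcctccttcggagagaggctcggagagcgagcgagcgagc
Ldb1 start at 46037070 (chr19:46037071-46037320, minus strand): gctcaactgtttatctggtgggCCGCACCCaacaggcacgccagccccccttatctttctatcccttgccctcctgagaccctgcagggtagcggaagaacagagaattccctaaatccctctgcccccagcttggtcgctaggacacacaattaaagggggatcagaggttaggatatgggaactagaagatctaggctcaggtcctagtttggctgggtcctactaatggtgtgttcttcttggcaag
Ep300 start at 81586214 (chr15:81585964-81586213, plus strand): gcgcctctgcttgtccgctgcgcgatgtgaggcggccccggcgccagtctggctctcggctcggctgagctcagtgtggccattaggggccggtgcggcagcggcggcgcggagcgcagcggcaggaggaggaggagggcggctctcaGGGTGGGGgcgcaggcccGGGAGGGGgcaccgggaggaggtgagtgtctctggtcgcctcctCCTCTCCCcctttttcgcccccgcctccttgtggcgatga
Med12 start at 101274091 (chrX:101273841-101274090, plus strand): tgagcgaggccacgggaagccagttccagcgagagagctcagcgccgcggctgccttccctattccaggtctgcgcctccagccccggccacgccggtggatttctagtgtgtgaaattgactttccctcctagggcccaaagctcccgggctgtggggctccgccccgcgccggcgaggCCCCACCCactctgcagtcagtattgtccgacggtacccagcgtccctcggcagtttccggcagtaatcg
RefSeq promoter windows, which run from 250 bases before to 50 after a start, matched 8 of the genes with 10 windows, 3 of them for Ldb1. All 10 windows held GGGNGNGG, from 1 match (Med13l and the innermost Ldb1 start) to 9 overlapping or separate matches (Crebbp), against 49.5% of 32851 windows in the RefSeq table and 56.6% of the 21263 windows of protein-coding genes. None of the 10 held AAGATGGC, letters within the site bound by YY1, which 2.75% of all windows hold. The windows had 51.0% to 84.7% G and C. Only 2 of the 10 windows overlapped an iPSC KLF4 peak, and both belong to Ldb1. At the Ldb1 start at 46039621 all 250 bases shown lay inside a KLF4 peak, and at the start at 46045311 it was 183 of them. The Ep300, Yy1 and Crebbp starts had their nearest KLF4 peak 927, 830 and 576 bp away, outside the windows, and the Med12 start 51419 bp away. A match describes letters in a window and was not read as a bound site.

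The difference in acetylation between 24 h and 0 h at these genes was mostly close to that of the genome at large, with Ldb1 lower at 24 h and Med12 at the high end. All 9 genes had at least 1 bin valued at both times, against 51.4% of protein-coding genes, with 32 such bins in all. Their relative values ran from -0.34 (Ldb1) to 0.30 (Med12), with a median of 0.05, against a median of 0.02 over the 11243 protein-coding genes with a value. Relative values were below 0 at 4 of the 9 genes, against 46.7% of genes. Ldb1 alone was lower by more than 0.32 on the log2 scale, the size used here to call a gene, against 8.07% of genes, and none was higher by that much, against 9.45%. With no scaling between the lists Med1, Med24, Ep300 and Yy1 were also below 0, and Med12 alone was above. A further 3 bins had a value at 24 h only and 2 at 0 h only, and these do not enter relative values. Neighbouring bins often carry the same deposited value, as at Ep300, Crebbp, Med13l and Ldb1, and are then not independent.

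**Figure D1:**
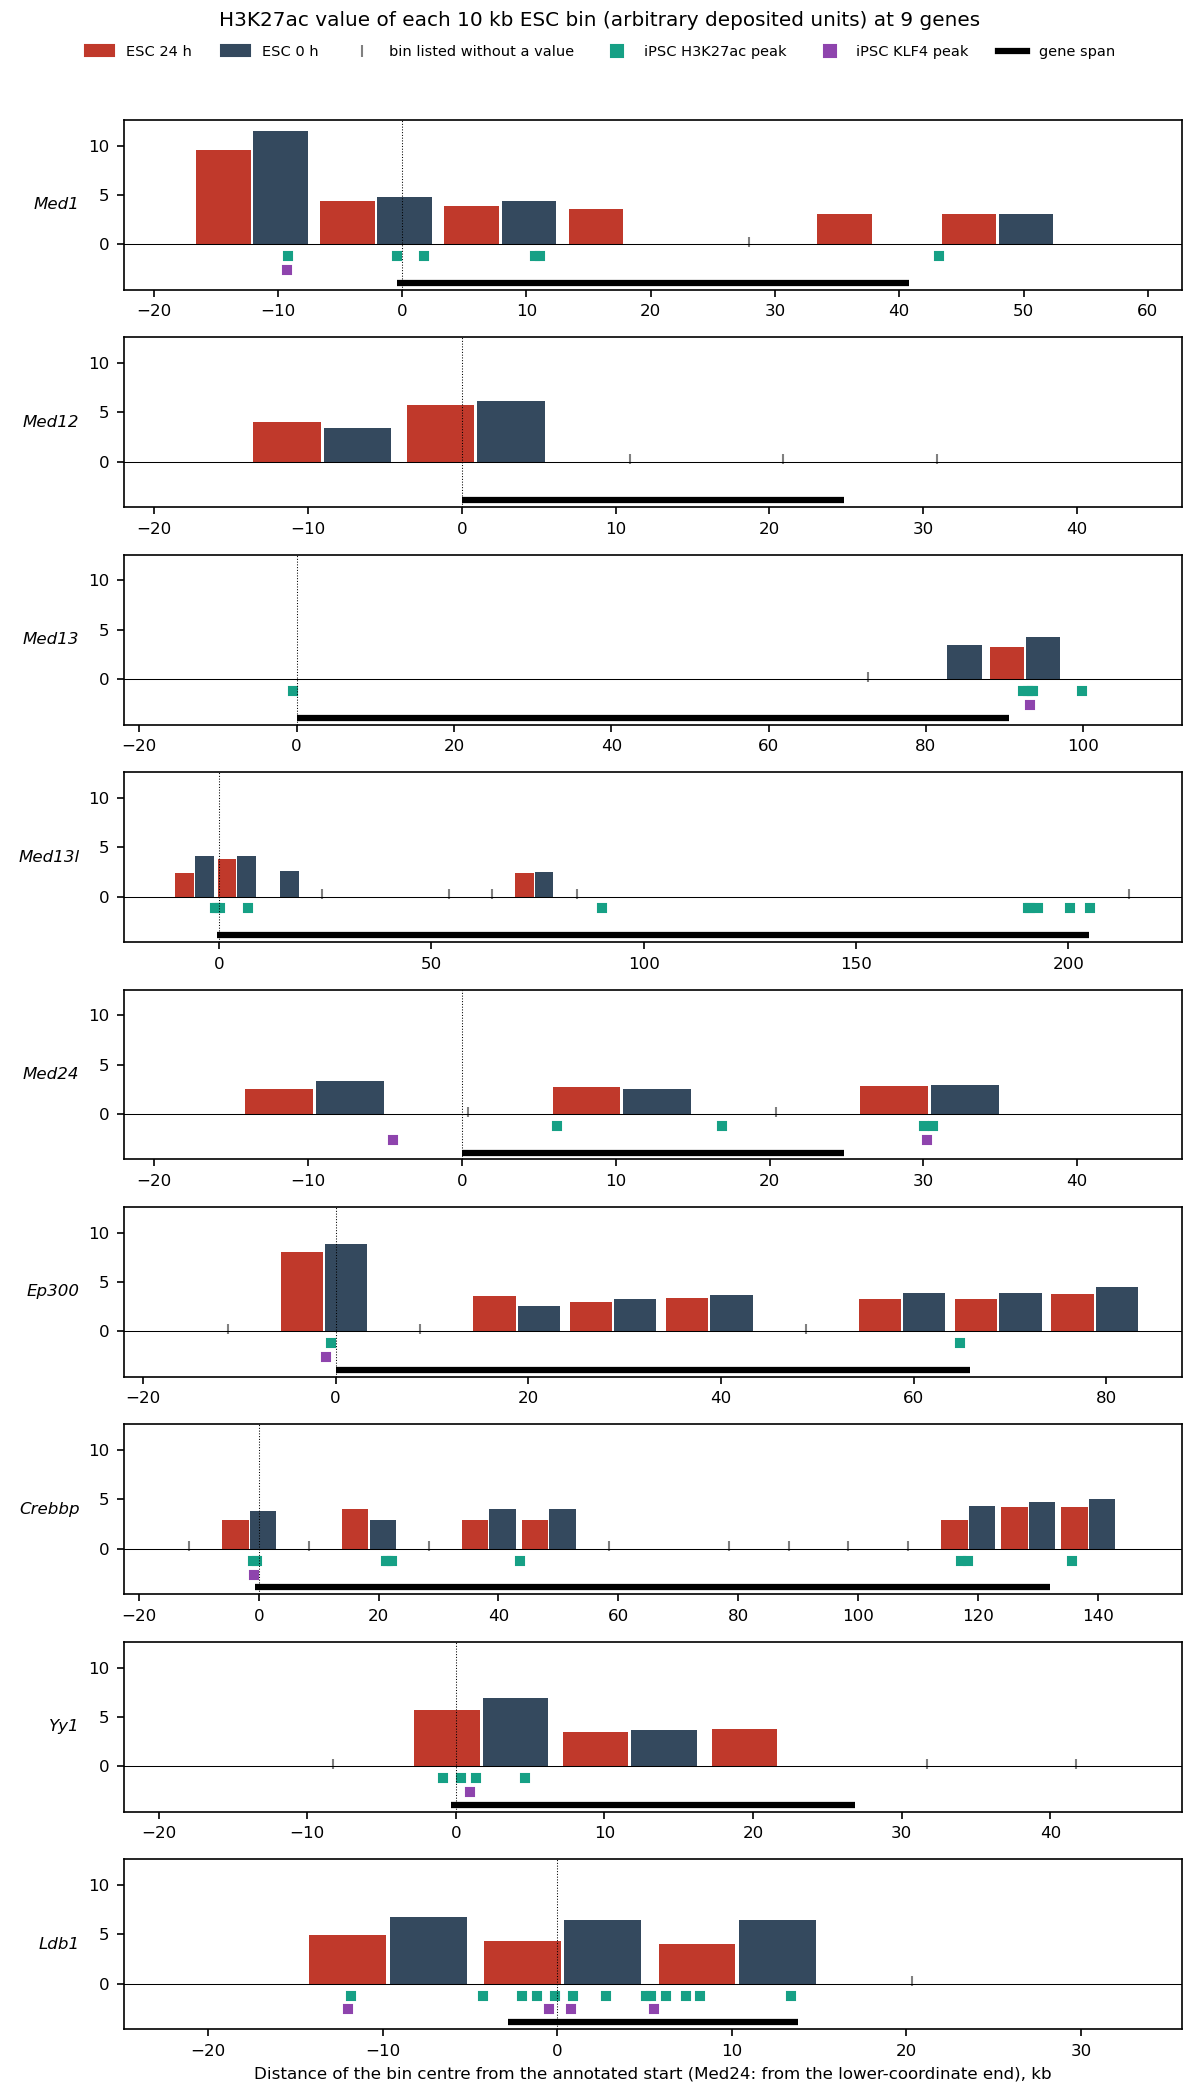
H3K27ac value (vertical axis, deposited units) of each 10 kb ESC bin at 24 h (red, left) and 0 h (dark, right) by distance in kb from the annotated start (for Med24, from the lower-coordinate end of its span), with iPSC H3K27ac peaks, iPSC KLF4 peaks and the gene span below; a missing bar is a bin without a value at that time. The 3 valued Ldb1 bins have lower bars at 24 h, the highest bars stand upstream of Med1, and Med13 has none at its start.

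In the kinase module, Med12 (chromosome X, 101274091 to 101298934), whose protein activates CDK8, had the highest relative value of the 9 genes, from 2 bins. The bin with its start held 5.72 at 24 h and 6.16 at 0 h, a relative value of 0.12. The bin before it, which also touches Foxo4, Gm614 and Il2rg, held 4.07 at 24 h and 3.44 at 0 h, a relative value of 0.47. The gene mean of 0.30 (SD over bins 0.25, n = 2 bins) thus came in larger part from a bin that other genes share, and it was 0.12 with bins touched by no other protein-coding gene. No iPSC H3K27ac peak and no KLF4 peak lay within 10 kb of Med12. Genes with ESC values at both times but no iPSC H3K27ac peak made up 8.09% of such genes, and 13.1% of the 320 on chromosome X.

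Med13 (chromosome 11, 86267033 to 86357596), whose protein links the kinase module to the core, was hardly covered by the ESC lists. The bin with its start was listed at neither time, although an iPSC H3K27ac peak of 663 bp lay 0.51 kb before that start. Its values lay at the far end of the gene, where 1 bin held 3.26 at 24 h and 4.26 at 0 h (relative value -0.16) and the next bin held 3.51 at 0 h and no 24 h value. The bin valued at both times also held the KLF4 peak of Med13, 93.2 kb from the start and outside the span. The KLF4 peak nearest to the start itself lay 11497 bp from it, beyond the 10 kb flank. The ESC lists thus give no value for the Med13 promoter.

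Its paralog Med13l (chromosome 5, 118560330 to 118765438), which can take the place of MED13 in the module, was the longest of the genes, with a span of 205 kb. The start bin held 3.80 at 24 h and 4.14 at 0 h, and the bin before it held 2.44 and 4.14, relative values of 0.11 and -0.54. A bin within the gene held 2.42 at 24 h and 2.45 at 0 h (relative value 0.21), and another held 2.56 at 0 h with no 24 h value. The mean was -0.07 (SD over bins 0.40, n = 3 bins), and its sign turned, to 0.16, without flanks. Of 10 iPSC H3K27ac peaks at Med13l, 6 lay in bins that neither ESC list holds, 5 of them beyond 190 kb from the start.

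Med1 (chromosome 11, 98152154 to 98193313) encodes a middle-module subunit that nuclear receptors contact. Its start bin held 4.38 at 24 h and 4.81 at 0 h, and the next bin into the gene 3.91 and 4.44, relative values of 0.09 and 0.04. The highest value at any of the 9 genes, 9.60 at 24 h and 11.5 at 0 h, was in the bin upstream of Med1, which also touches Cdk12, and its KLF4 peak lay 0.24 kb from an end of Cdk12 and 9.29 kb from the start of Med1. At the far end of the gene, a bin shared with Fbxl20 held 3.09 at 24 h and 3.05 at 0 h. Med1 also had 2 bins valued at 24 h only, at 3.59 and 3.09. The mean relative value was 0.08 (SD over bins 0.12, n = 4 bins).

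Med24 (chromosome 11, 98704597 to 98729419), which encodes a tail-module subunit, had the lowest acetylation of the 9 genes. Its highest bin value was 2.83 at 24 h and 3.33 at 0 h, at percentiles 6.17 and 8.08 of genes with a value. The valued bin inside the gene held 2.78 at 24 h and 2.56 at 0 h, a relative value of 0.35. The flanking bins held 2.83 and 2.56 at 24 h against 2.95 and 3.33 at 0 h, relative values of 0.17 and -0.15, and the second of them also touches Psmd3. The mean was 0.12 (SD over bins 0.25, n = 3 bins), with values on both sides of 0, and turned to -0.09 with 25 kb flanks.

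Both writers of the mark carried it, with the higher level at Ep300. Ep300 (chromosome 15, 81586209 to 81652077) held 8.06 at 24 h and 8.87 at 0 h in its start bin, at percentile 94.3 of the 24 h list and 90.7 of the 0 h list. The other 6 bins valued at both times held 2.99 to 3.76 at 24 h and 2.57 to 4.52 at 0 h. Relative values were 0.09 in the start bin and -0.04 to 0.09 in 5 of the others, while the bin from 81600001 to 81610000, inside the gene, stood apart at 0.73, with 3.63 at 24 h and 2.57 at 0 h. That bin held neither a KLF4 nor an iPSC H3K27ac peak. The mean was 0.14 (SD over bins 0.27, n = 7 bins).

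Crebbp (chromosome 16, 4081334 to 4213957), the paralog of Ep300, had a lower start bin, with 2.92 at 24 h and 3.86 at 0 h, at percentile 19.5 of the 24 h list and 33.8 of the 0 h list. That bin had a relative value of -0.17. The 7 bins valued at both times were below 0 in 5 cases and above in 2, from -0.36 to 0.65. The highest, from 4190001 to 4200000, held 3.99 at 24 h and 2.97 at 0 h, together with 3 iPSC H3K27ac peaks 21.2 to 22.2 kb into the gene. The lowest held 2.90 at 24 h and 4.34 at 0 h, near the far end, with 2 such peaks. The mean of -0.05 (SD over bins 0.34, n = 7 bins) therefore stands for bins that differed from each other in both directions.

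**Figure D2:**
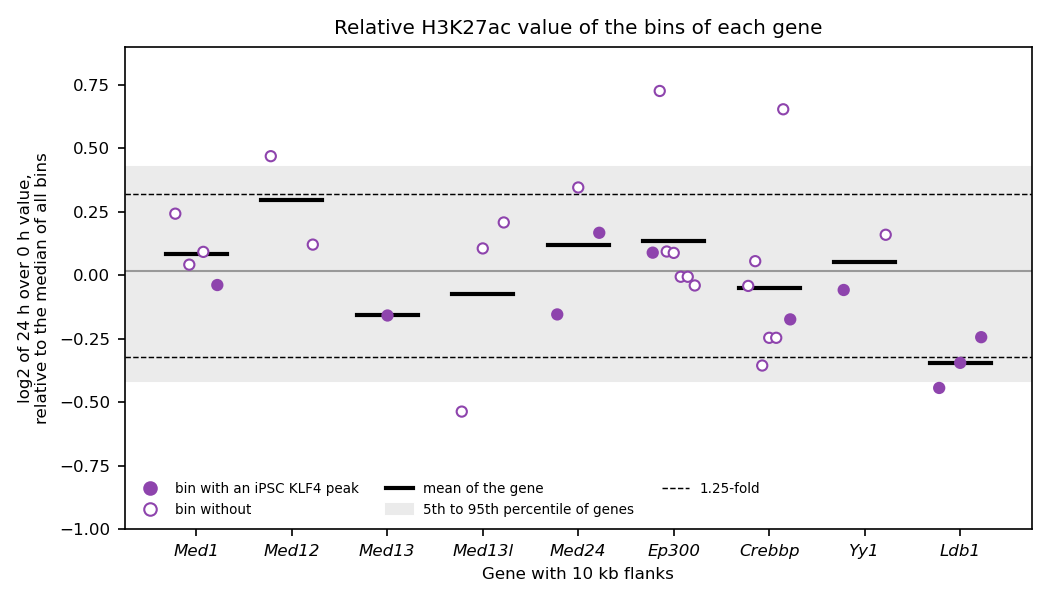
Relative H3K27ac value (log2 of 24 h over 0 h, less the median of all bins) of each bin valued at both times (circles, filled where an iPSC KLF4 peak lies in the bin) and its mean per gene (bars); the band spans the 5th to 95th percentile of protein-coding genes (-0.42 to 0.43) and dashed lines mark 0.32 in either direction. All 3 Ldb1 bins are filled and below 0, while Ep300 and Crebbp each have a bin without KLF4 far above the others, at 0.73 and 0.65.

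Yy1 (chromosome 12, 108792945 to 108820148) encodes a zinc-finger protein that binds promoters and enhancers and pairs with itself. Its start bin held 5.70 at 24 h and 6.94 at 0 h, with a KLF4 peak 0.97 kb after the start, and a relative value of -0.06. The next bin held 3.51 at 24 h and 3.68 at 0 h, a relative value of 0.16, and the one after it 3.74 at 24 h and no value at 0 h. The mean was 0.05 (SD over bins 0.15, n = 2 bins).

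Ldb1 (chromosome 19, 46031525 to 46048145) encodes an adaptor that binds LIM-domain proteins and itself, and so joins distant sites. All 3 of its valued bins were lower at 24 h than the median bin. The bin with the outermost of its 3 listed starts held 4.33 at 24 h and 6.44 at 0 h, the bin with the inner starts 4.05 and 6.44, and the bin beyond the start 4.89 and 6.78. Their relative values were -0.34, -0.44 and -0.24. The mean was -0.34 (SD over bins 0.10, n = 3 bins), a fold of 0.788, at percentile 7.17 of protein-coding genes. Both bins that touch the gene shared 1 value at 0 h, so they are not independent. The call was lost with 25 kb flanks (-0.23) and narrowly with the ratio of summed values (-0.319, against a threshold of 0.322). The bin beyond the start is shared with Pprc1, and without it the mean was -0.39.

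**Figure D3:**
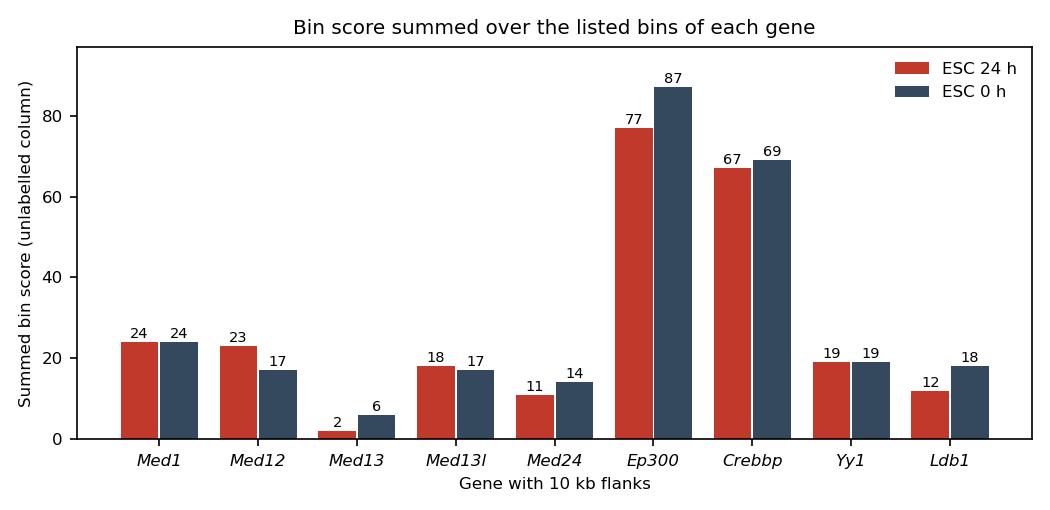
Bin score, an unlabelled whole number of the deposited ESC lists, summed over the listed bins of each gene with 10 kb flanks, at 24 h (red, left) and 0 h (dark, right). Ep300 and Crebbp have the highest sums at both times. The sum is higher at 24 h at Med12 (23 and 17) and Med13l (18 and 17), and equal at Med1 and Yy1. It is lower at 24 h at Med13 (2 and 6), Med24 (11 and 14), Ep300 (77 and 87), Crebbp (67 and 69) and Ldb1 (12 and 18). Over the whole lists the ratio of the sums, 24 h over 0 h, is 0.904.

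Each ESC bin also carries a whole number of unstated meaning, referred to as the bin score, with a sum of 168512 over the 24 h list and 186496 over the 0 h list. Relative scores are given against the ratio of these sums, 0.904. The 9 genes summed to 253 at 24 h and 271 at 0 h. Of their 53 bins listed at both times, 25 had a lower score at 24 h, 13 the same and 15 a higher one. The same count was not made over all bins, and the whole 24 h list also has the lower sum. The counts are therefore a description and show no loss particular to these genes. Ep300 had 77 at 24 h and 87 at 0 h and Crebbp 67 and 69, and at 0 h these sums lay at percentiles 99.1 and 98.5 of protein-coding genes. A sum grows with the number of bins, and per listed bin Ep300 had 7.70 at 24 h and 8.70 at 0 h, Crebbp 4.47 and 4.93, and all bins of the lists 3.56 and 3.77. The Ep300 start bin had a score of 14 at 24 h and 17 at 0 h.

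Med12 and Ldb1 passed 0.32 in the relative score, in opposite directions, among the 8 genes with a summed score of 10 or more. Med12 had 23 at 24 h and 17 at 0 h, a relative score of 0.58, against 22% of genes higher by that much. Of the 23, 3 came from a bin absent from the 0 h list, and with bins listed at both times the relative score was 0.36. With bins valued at both times it was 0.14, and the Med12 call was lost. Ldb1 had 12 at 24 h and 18 at 0 h, a relative score of -0.44, against 18.3% of genes lower by that much. Its 3 valued bins had scores of 4, 3 and 4 at 24 h and 5, 5 and 8 at 0 h, and 1 further bin had 1 at 24 h and was not listed at 0 h. The largest difference was in the bin shared with Pprc1, and without that bin the relative score was -0.18 and the Ldb1 call was lost. With 25 kb flanks it was also -0.18 and not called, while Med24, at -0.44, was.

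The relative scores of the other genes were 0.15 for Med1 (24 at 24 h and 24 at 0 h), 0.15 for Yy1 (19 and 19), 0.23 for Med13l (18 and 17), 0.10 for Crebbp, -0.03 for Ep300 and -0.20 for Med24 (11 and 14). Med13, with 2 at 24 h and 6 at 0 h, was too low to be given one. The median over the 8 genes was 0.13, against 0.04 over 9974 protein-coding genes. Relative scores were below 0 at 3 of the 8, against 45.5% of genes. Past 0.32 in either direction were 40.3% of genes, so 2 of 8 is below the background share. Ldb1 was the 1 gene of 8 lower by more than 0.32 in both value and score, against 3.66% of 9668 genes.

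**Figure D4:**
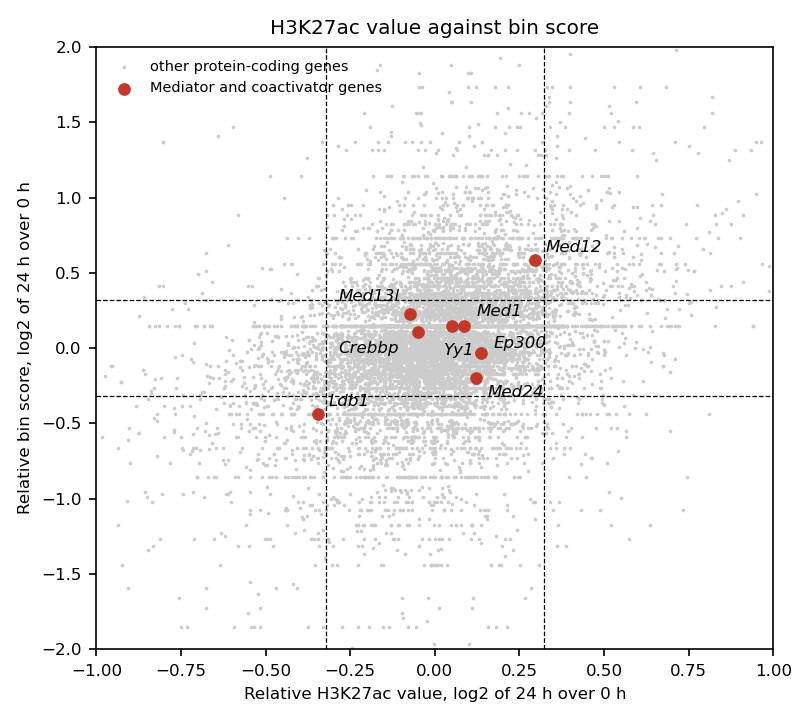
Relative bin score against relative H3K27ac value (both log2 of 24 h over 0 h) for 8 of the genes (red) and all protein-coding genes with both values (grey), with dashed lines at 0.32 in either direction; 95 of 9668 genes lie outside the axes. Ldb1 sits below both lower lines at -0.34 and -0.44, and Med12 at the upper right at 0.30 and 0.58.

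In iPSCs, 7 of the 9 genes had a KLF4 peak within 10 kb of their span, against 52.6% of protein-coding genes and 74.7% of the genes valued at both times in ESCs. An H3K27ac peak was present at 8 of the 9, against 59.7% of protein-coding genes. It was absent at 1 of the 9, near the 8.09% of genes valued at both times that lack one. A KLF4 peak on an H3K27ac peak was present at 7 of the 9 genes, against 33% of protein-coding genes and 55.9% of those valued. These were all the genes of the 9 with KLF4. Among all protein-coding genes with a KLF4 peak, 7224 of 11512 had one on H3K27ac, and 6289 of 8404 among those valued. The genes had a median span of 41.2 kb, against 17.2 kb over protein-coding genes, and whether span bears on these shares was not tested. Of the 11 KLF4 peaks, 10 overlapped an H3K27ac peak, and 7 when a larger part of the KLF4 peak had to be covered. Those 7 peaks lay at 5 of the genes, with Med13 and Crebbp lost. Summed over all protein-coding genes, 12004 of 23012 KLF4 peaks overlapped an H3K27ac peak by 1 bp or more, a KLF4 peak being counted for each gene window it touches. Of the 11, 4 lay inside a span and 6 lay within 2 kb of a RefSeq start, counts that were not made over all genes. Ep300 had its peak (140 bp) 1.00 kb before the start, under an H3K27ac peak of 2687 bp, the widest at any of the 9 genes. Crebbp had a KLF4 peak of 422 bp 0.79 kb before its start. Those of Med1, Med13 and Med24 all lay outside the gene, and 1 of the 2 at Med24 lay 0.05 kb from an end of Csf3 without H3K27ac.

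Ldb1 had 4 KLF4 peaks and 13 H3K27ac peaks, the most of the 9 genes for either mark, and all 4 KLF4 peaks overlapped H3K27ac. The widest, 777 bp (chr19:46045379-46046155), was centred 0.46 kb before the outermost start, and the others inside the gene were 149 bp, 0.82 kb after that start, and 260 bp, centred 0.13 kb before the start at 46039621, whose upstream bases are printed above. The one outside, 499 bp, lay 0.75 kb from an end of Pprc1 and 12.0 kb before the Ldb1 start. At least 4 KLF4 peaks were held by 10.9% of genes valued at both times, and of those 1226 genes 10.1% had a relative value lower by more than 0.32, against 8.07% of all valued genes. Med13l had 10 H3K27ac peaks, Crebbp 9, Med1 and Med13 6 each, Yy1 and Med24 4 each and Ep300 2.

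**Figure D5:**
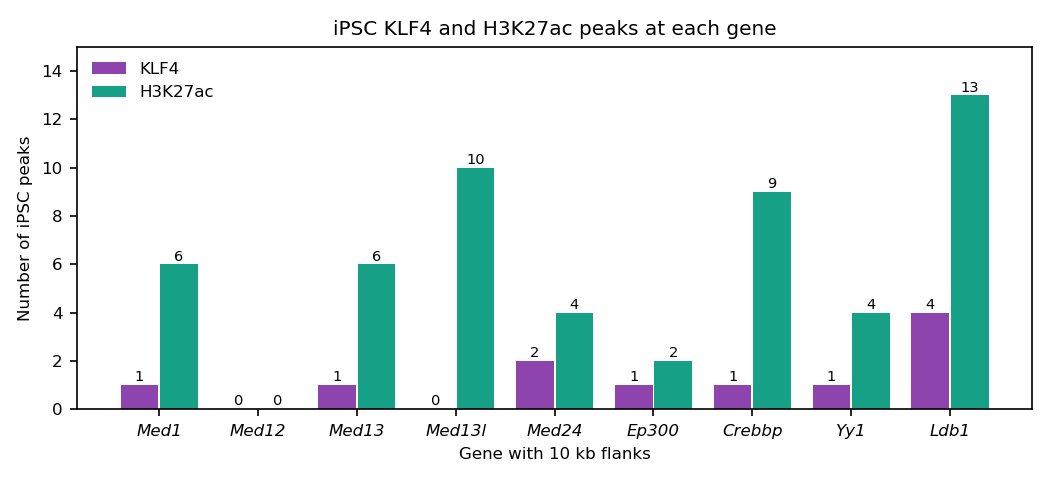
Number of iPSC KLF4 peaks (purple, left) and iPSC H3K27ac peaks (green, right) overlapping each gene with 10 kb flanks. Ldb1 has 4 and 13, Med13l 0 and 10, and Med12 none of either.

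Across the 32 bins of the 9 genes valued at both times, the 10 with a KLF4 peak were below 0 in 8 cases, with a median relative value of -0.16, and the 22 without were below 0 in 8 cases, with a median of 0.09. Over all bins valued at both times the medians were -0.08 with KLF4 (8857 bins) and 0.06 without (13882 bins). Without the 3 bins of Ldb1, 5 of the remaining 7 bins with KLF4 were below 0, and their median was -0.06. Both counts include a Med24 bin at -0.15 that holds only the edge of a KLF4 peak. That peak is centred in the next bin, which has no value. Bins below 0 were not counted over all bins, where the median with KLF4 was also below 0. Bins of 1 gene share neighbours and values, so these counts are a description. The KLF4 bins of the 9 genes also had the higher 0 h value, with a median of 6.44, or 4.26 with Ldb1 left out, against 3.93 in bins without KLF4. At 24 h these medians were 4.19, 3.26 and 3.43.

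By the distance over relative value, relative score, KLF4 peaks and H3K27ac peaks, each divided by its SD over genes, the closest of the 8 genes with all 4 readouts were Med1 and Yy1 (0.38) and the farthest Med12 and Ldb1 (4.62). These readouts come from 4 lists, and the distance describes those lists alone.

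Other genes of the same machinery spread around the genome median as well. Of 28 other Mediator subunits, 21 had a relative value, with a median of 0.04 and 14 above 0. Of these, 1 was lower by more than 0.32 and 3 were higher, against 8.07% and 9.45% of genes, so the counts lie near the background. The highest was Med12l, the paralog of Med12, at 0.47 (highest value 6.09 at 24 h and 5.15 at 0 h). It came from 2 bins with the same relative value, so they are not independent. Next were Med19 at 0.42 and Med18 at 0.37, and the lowest was Ccnc, which encodes cyclin C of the kinase module, at -0.38. Med19 and Ccnc were named after their values were seen. Med12l and Med18 were also higher in relative score, at 0.80 (11 at 24 h and 7 at 0 h) and 0.50 (23 and 18). Med12l had 6 bins listed at 24 h and 3 at 0 h, and its score per listed bin was lower at 24 h, 1.83 against 2.33. Med21, Med27 and Med14 had relative scores of 1.15 (10 at 24 h and 5 at 0 h), 0.88 (15 and 9) and 0.77 (17 and 11). Their relative values were 0.05 at Med21, -0.22 at Med27 and close to 0 at Med14. Of the 17 subunits with a relative score, 6 were higher by more than 0.32 and 3 were lower, against 22% and 18.3% of genes. Med19, high in value, had a relative score of -0.32 (13 at 24 h and 18 at 0 h). Med26, which the elongation machinery contacts, had the most KLF4 peaks of the subunits (5) and a relative value of 0.01.

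Of 18 other coactivators, acetyl-lysine enzymes and readers, all had a value, 9 above and 9 below 0, with a median of 0.01. Those lower by more than 0.32, 2 of 18 against 8.07% of genes, were Ncoa2 at -0.34, a nuclear receptor coactivator, and Cited2 at -0.41 from 1 bin, a partner of p300 and CBP that was named after its value was seen. Ncoa2 also had a low relative score, -0.68 (13 at 24 h and 23 at 0 h), as did Hdac1, a histone deacetylase, with -0.48 (26 and 40). Of the 17 coactivators, enzymes and readers with a relative score, 4 were lower by more than 0.32 and 1 was higher, against 18.3% and 22% of genes. Brd2, a bromodomain reader of acetylated histones, had 5 KLF4 peaks, values up to 15.3 at 24 h and 19.4 at 0 h, and a relative value of -0.11. Of the 9 partners and relatives of YY1 and LDB1, 6 had a value, with a median of 0.11. Rlim, an X-linked ubiquitin ligase that targets LDB1 and LIM factors, was highest at 0.72, with values up to 13.2 at 24 h and 9.23 at 0 h and 10 in summed score at both times. Ssbp4, whose family binds LDB1, was at 0.20 with a relative score of 0.47 (15 and 12), and Ino80, a remodeller that works with YY1, was at 0.05 with 0.68 (29 and 20) and 5 KLF4 peaks. Ino80 had 13 bins listed at 24 h and 8 at 0 h, and its score per listed bin was lower at 24 h, 2.23 against 2.5. Of the 5 partners with a relative score, 3 were higher by more than 0.32 and 0 lower, against 22% and 18.3% of genes. A KLF4 peak was present at 16 of the 28 subunits and 5 of the 9 partners, near the 52.6% of protein-coding genes. It was present at 17 of the 18 coactivators, all of them valued, against 74.7% of genes valued at both times. Their median span was 40.5 kb, against 17.2 kb over protein-coding genes, and whether span bears on this was not tested.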

How the data were processed

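The data were 4 lists that the authors deposited for 12 ChIP-seq samples, tied to groups by the names of the lists. Bowtie2, SAMtools, bedtools and MACS2, with mm10, are named without versions in the submitters' processing notes, and no source used here says how replicates were combined. The deposited ESC lists hold 10 kb bins without a header. Column 10 was read as H3K27ac signal, in deposited units of unstated normalization, and the smallest storable number was read as no value. Column 4, a whole number, was kept as a deposited score of unstated meaning. The deposited iPSC lists hold peak positions only (other columns hold none), read as BED.

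Gene spans, starts and sequences came from RefSeq GRCm38.p6, and all 9 genes matched. A relative value is the mean over bins valued at both times of log2 (24 h over 0 h) less the median of all such bins, and a relative score is the log2 ratio of summed scores less that of all bins. Genes past 0.32 (log2) either way were called, with a minimum summed score of 10. Overlap was 1 bp or more. Genes named beside the 9 were those called in either measure, the 10 largest, and the 3 with the most KLF4 peaks. The likeness distance was computed over the 4 readouts. The genes and lists were chosen with earlier results of these data known. With 1 list per group no test was possible. Calculations used Python 3.11.15, numpy 2.4.6 and pandas 2.3.3, and were tested on simulated data. Alternatives changed flanks, bins, scaling, peak width and overlap.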

Additional observations from a re-analysis of the deposited data

How the results depend on the processing

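No paired analysis was possible because each group has 1 deposited list and no values per replicate, and leaving out a replicate could not be run for the same reason. The 1 gene called in H3K27ac value became 2 without flanks (Ldb1 and Med24), 0 with 25 kb flanks, 0 with the ratio of summed values, 4 when bins valued at 1 time only were given the lowest value of the list that lacked them (Med1, Med13, Yy1 and Ldb1), and 2 with no scaling between the lists (Ldb1 and Med13). That unscaled setting, added after the data were seen, also took the median of the genes to -0.18. The 2 genes called in bin score became 4 without flanks (Med1, Med12, Med13l and Ldb1), 1 with bins valued at both times (Ldb1, with Med12 lost at 0.14) and 1 with bins that touch no other protein-coding gene (Med12, with Ldb1 lost at -0.18), a setting also added later. With 25 kb flanks the count stayed at 2, but the genes were Med12 and Med24 (-0.44), and Ldb1 was lost at -0.18. The 7 genes with a KLF4 peak became 2 without flanks and 4 with the wider peaks of the list. The 7 with such a peak on H3K27ac became 2 without flanks and 2 with the wider peaks of both lists. They became 5 when a larger part of the KLF4 peak had to be covered. Ldb1 stayed below 0 in value in each of 7 scaled alternatives, from -0.39 to -0.23, and in score in each of 5, from -0.58 to -0.18. Of 111 gene values under an alternative, 12 had another sign, which were Med13l without flanks, Med24 with 25 kb flanks, Med1, Med24, Ep300 and Yy1 with no scaling, and Med1, Ep300 and Yy1 in score under 1 or more settings. The cause of these differences was not tested. Bin width limits all ESC values, since a 10 kb bin can hold several elements and genes.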
